A study of Homo sapiens with 2 samples.

Results

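The clustered protocadherin genes lie in a single array on the long arm of chromosome 5, and 53 protein-coding members of it were examined here in human HEK293T cells by whole-genome bisulfite sequencing (WGBS). Members were all PCDHA, PCDHB and PCDHG genes of a 728-kb window of the hg19 build, with PCDHA1 starting at chr5:140165725 and the last PCDHG constant exon ending at chr5:140892542, and comprised 15 PCDHA genes, 16 PCDHB genes and 22 PCDHG genes. The window held 8077 CpGs with at least 1 read in both libraries, out of 14699127 such CpGs on the main chromosomes (0.0549%) and out of 12980 CpGs that the reference has in the window. HEK293T is an established line derived from human embryonic kidney. One library came from the negative control (Neg), described by the study as cells that were not transduced. The other (dCas9+3A+HOXA5) came from cells transduced with lentiviruses for dCas9-SunTag, for an antibody fragment (scFv) fused to the DNA methyltransferase DNMT3A, and for a guide against HOXA5. In that group, fluorescent cells were sorted, cultured for 30 days and sorted again. The labels attach the same culture text to both libraries. There was 1 library per group, so each test compared these 2 libraries and not the conditions. The question for these genes was whether methylation far from the guide differed between the libraries.

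Protocadherins are cadherin-like adhesion proteins of the cell surface, and the clustered ones give neurons a cell-by-cell identity used in self-recognition. Each PCDHA and PCDHG protein is encoded by its own large variable exon, with its own promoter, spliced to a short set of constant exons at the end of its family. PCDHB genes have no constant exons and are made of their own exon alone. In neurons the alternate promoters are chosen at random, and binding of CTCF and cohesin at a conserved sequence element near the start, which DNA methylation counters, takes part in the choice. The C-type genes (PCDHAC1, PCDHAC2, PCDHGC3, PCDHGC4 and PCDHGC5) are expressed more broadly among neurons and are controlled differently.

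The sequence element is shown first because the reads over it bear on the starts of the genes. It contains a CpG inside the letters GTCGCT in PCDHA genes, GGCGCT in PCDHB genes, and GTCGCT or GCCGCT in PCDHG genes. These letters were set after the sequences had been read. A match to them is counted below as the element, also in C-type genes, and binding at a match was not tested. On the gene's own strand, from 250 bases before to 50 bases after the start, they were present in 13 of 15 PCDHA, 14 of 16 PCDHB and 20 of 22 PCDHG members, at a median of 60 bases before the start. Among 20078 protein-coding promoters of the same length, GTCGCT was found in 5.81% on the gene's strand and 10.4% on either strand. GGCGCT was found in 17.2% and 29.1%, and GCCGCT in 16.2% and 30.2%. GNCGCT, with any base in place of N, covers all these forms and was found in 37.3% and 56.5%. The longer GTGGCGCT, which contains GGCGCT, was found in 14 of 16 PCDHB members and in 0.951% of all promoters. The 3 elements of each family with the most reads on the CpG in the Neg library are shown (GRCh37, forward strand, the element in capitals). PCDHB16 and PCDHB12 tied in Neg, and PCDHB16 had more reads in the other library.

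PCDHA1, chr5:140165673-140165700: tggccacatgatGTCGCTgtacaccaca

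PCDHA4, chr5:140186566-140186593: gagccacatgatGTCGCTctttaccaca

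PCDHA5, chr5:140201129-140201156: catccacatgatGTCGCTggacaccgga

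PCDHB5, chr5:140514763-140514790: aggacgcctggtGGCGCTgcaggctaag

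PCDHB16, chr5:140561887-140561914: agaacgcgtggtGGCGCTgcaggttaag

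PCDHB9, chr5:140566650-140566677: aagccacaaggtGGCGCTgcagactgaa

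PCDHGB3, chr5:140749731-140749758: gaggcgccgggtGCCGCTcttggctagt

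PCDHGA6, chr5:140753404-140753431: aggactctaagcGTCGCTgttgaccaac

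PCDHGA11, chr5:140800541-140800568: tgggctctaggcGCCGCTgctcaccaat

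The CpG of the element was read in both libraries in 15 of the 47 members that had the element. It had no methylated read in either library in 13 of the 15. Over the 15 members, 4 of 50 reads were methylated in the Neg library and 0 of 31 in dCas9+3A+HOXA5. The methylated reads came from 2 genes. PCDHB5 had 3 of 6 methylated reads in Neg against 0 of 2 in dCas9+3A+HOXA5, and PCDHA5 had 1 of 4 and 0 of 2. At PCDHA1 the element had 0 of 5 and 0 of 1 methylated reads, and at PCDHGA6 it had 0 of 6 and 0 of 5. Among the other 32 elements, whose own CpG was not read in both libraries, 18 had another CpG read in both within 100 bp. Those neighbouring CpGs were at 0% in both libraries at 5 genes and at 50% or more in at least 1 library at 10, among them PCDHA13 (100% in each, from 1 CpG) and PCDHGB5 (30.1% and 79.2% over 8 CpGs), named after their values were seen. With so few reads per element, the level at any one gene was not closely bounded.

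Longer stretches are given for the members the results below turn on, with every CpG in capitals. PCDHA11 and PCDHB14 had the lowest promoters of their families, and PCDHGC4 had a CpG-dense start with every CpG read and none methylated. PCDHAC2 and PCDHGA10 were the promoters whose difference passed the test. For PCDHGA10 the stretch is a part of the exon chosen because the libraries differed there, and stretches of the exon were not ranked.

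PCDHA11 start, chr5:140248392-140248591: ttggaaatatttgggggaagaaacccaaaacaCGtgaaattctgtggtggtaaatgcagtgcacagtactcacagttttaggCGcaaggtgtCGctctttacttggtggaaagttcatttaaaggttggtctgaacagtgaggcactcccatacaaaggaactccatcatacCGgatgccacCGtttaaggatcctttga

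PCDHB14 start, chr5:140602765-140602964: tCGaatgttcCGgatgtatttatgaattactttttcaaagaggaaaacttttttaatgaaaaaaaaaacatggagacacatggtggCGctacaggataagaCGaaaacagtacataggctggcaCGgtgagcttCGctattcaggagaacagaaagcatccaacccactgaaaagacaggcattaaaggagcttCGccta

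PCDHGC4 start, chr5:140864397-140864646: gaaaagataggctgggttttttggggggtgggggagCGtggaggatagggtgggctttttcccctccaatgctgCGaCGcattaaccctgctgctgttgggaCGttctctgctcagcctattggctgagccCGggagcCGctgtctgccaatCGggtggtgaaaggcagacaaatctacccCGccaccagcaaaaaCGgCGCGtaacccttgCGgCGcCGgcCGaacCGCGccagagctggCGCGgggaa

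PCDHAC2 start, chr5:140345861-140346110: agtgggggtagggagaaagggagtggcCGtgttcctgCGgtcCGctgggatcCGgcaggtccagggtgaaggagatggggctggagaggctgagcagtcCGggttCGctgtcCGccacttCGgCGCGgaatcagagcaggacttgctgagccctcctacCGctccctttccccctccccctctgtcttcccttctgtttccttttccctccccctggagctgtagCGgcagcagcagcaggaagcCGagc

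PCDHGA10 variable exon, chr5:140792884-140793063: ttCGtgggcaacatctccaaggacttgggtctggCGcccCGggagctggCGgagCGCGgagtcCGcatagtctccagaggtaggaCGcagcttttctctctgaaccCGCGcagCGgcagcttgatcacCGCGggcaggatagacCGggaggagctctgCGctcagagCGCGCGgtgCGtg

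Depth was low and unequal. Over the shared CpGs of the window, the Neg library had 4.21 reads per CpG and dCas9+3A+HOXA5 3.07, against 4.23 and 2.96 over the main chromosomes, and 737 CpGs of the window had 5 or more reads in each. At the guide's own target, the HOXA5 promoter, the mean level was 1.87% in Neg against 41.2% in dCas9+3A+HOXA5 over 116 CpGs. Many CpGs of the variable exons lie in sequence shared between members: 44.2% of the window's shared CpGs lie in a 50-base stretch that, once bisulfite-converted, occurs more than once in the window. The share was 56.5% in PCDHA, 65.3% in PCDHB and 38.9% in PCDHG variable exons. Reads there could be placed on the wrong member, and the sources used here do not give how reads with several matches were placed.

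Along the cluster, methylation differed more between stretches than between the libraries. The 13 alternate PCDHA genes, from PCDHA1 to PCDHA13, averaged 65.3% in Neg against 62.9% in dCas9+3A+HOXA5 over 2005 CpGs. From there to the last PCDHA constant exon, the level was 25.9% and 25.1%, and it was 15.5% and 16.2% in the gap before PCDHB1. PCDHB1 to PCDHB15 averaged 47.0% and 46.8%. PCDHGA1 to PCDHGA12 averaged 56.3% and 63.1%, and the last stretch, with PCDHGC3, PCDHGC4, PCDHGC5 and the PCDHG constant exons, 67.6% and 73.5%. The end of the PCDHA family was thus low in both libraries and the end of the PCDHG family high in both. Leaving out CpGs in repeated stretches lowered the PCDHB level to 27.7% and 29.8% and the PCDHA1 to PCDHA13 level to 54.8% and 53.9%.

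Over all shared CpGs of the window the mean level was 53.9% in Neg against 55.9% in dCas9+3A+HOXA5, which is 2.0 percentage points more. It was 1.23 points more with at least 3 reads per CpG and 0.958 with at least 5. By read share it was 1.18 points more, and without CpGs in repeated stretches 3.34. Chromosome 5 as a whole went from 60.5% to 67.7%, a difference of 7.26 points, and the main chromosomes from 63.7% to 69.5%, a difference of 5.81 points. The PCDHA1 to PCDHA13 stretch was 2.43 points lower in dCas9+3A+HOXA5 and the PCDHB stretch 0.257 points lower, while the PCDHGA1 to PCDHGA12 stretch was 6.79 points higher and the PCDHGC stretch 5.84 points higher. With 1 library per group these differences between families have no replicate error and were not tested.

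**Figure D1:**
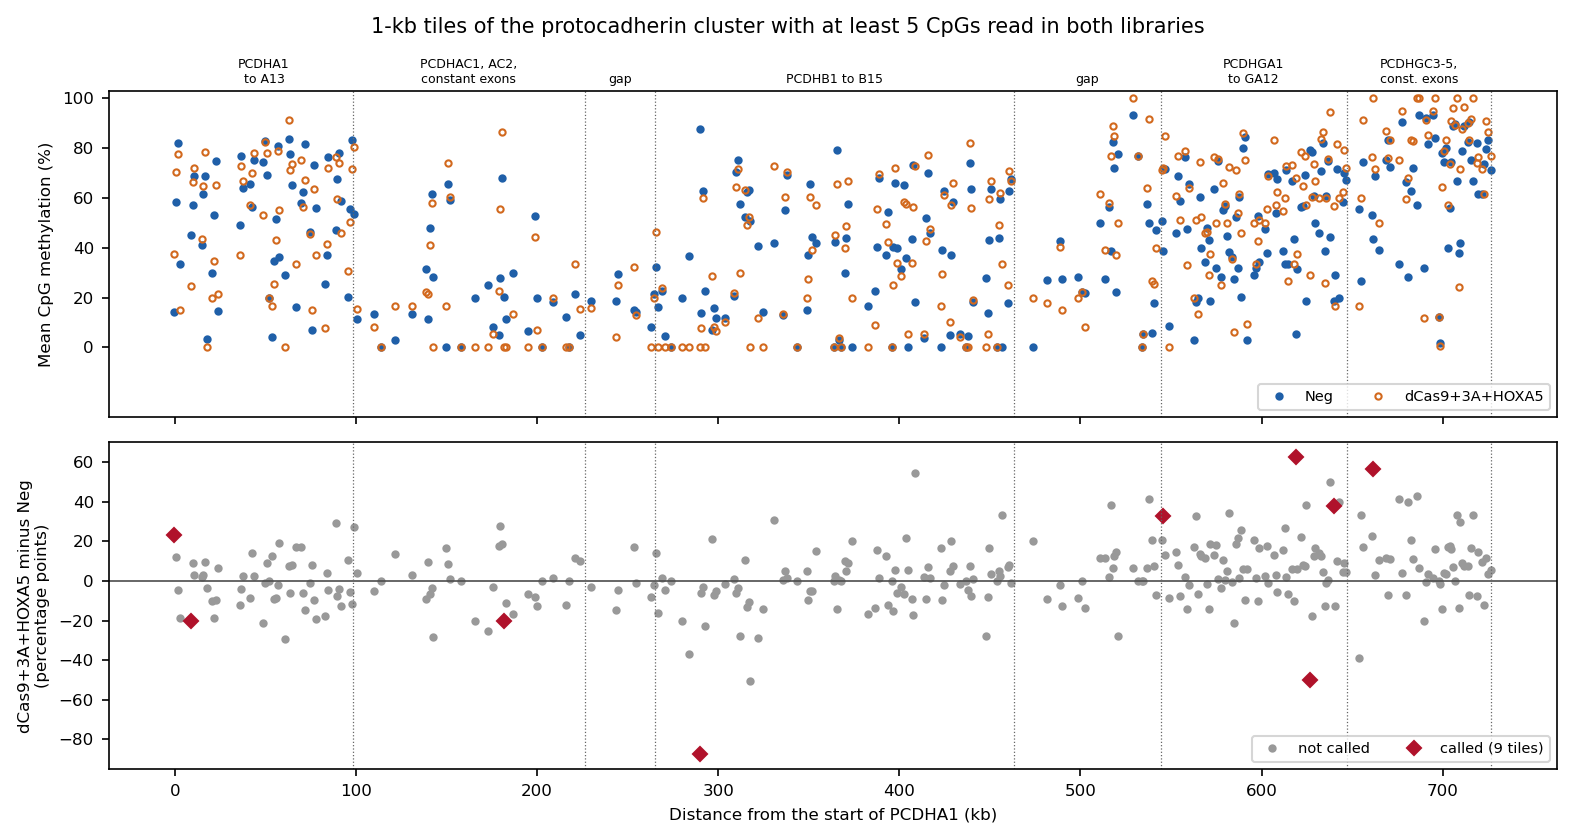
Each point is a 1-kb tile holding 5 or more CpGs that both libraries read, placed by its distance from the start of PCDHA1 in kb, with mean CpG methylation (%) above and the difference dCas9+3A+HOXA5 minus Neg (percentage points) below. Dotted lines bound the stretches named at the top. Tiles after PCDHA13 are mostly low and those of the last PCDHG stretch mostly high in both libraries, and the 9 called tiles are the diamonds.

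A gene by gene view of the promoters, taken as 1 kb either side of the start, showed intermediate levels in most members. Of the 53 promoters, 44 in Neg, and 46 in dCas9+3A+HOXA5, lay between 20% and 80%, against 41.9% and 32.8% of the 53181 promoters tested in the genome. The mean over members was 50.3% ± 14.5 (SD over 15 genes) in Neg against 49.4% ± 21.1 in dCas9+3A+HOXA5 for PCDHA, 23.4% ± 13.1 and 25.8% ± 14.0 for PCDHB (16 genes), and 49.4% ± 15.6 and 54.7% ± 16 for PCDHG (22 genes). The PCDHB promoters had the lowest mean in both libraries. With at least 5 reads per CpG, which left 7 PCDHB genes, the Neg means were 49.6% for PCDHB, 56.2% for PCDHA and 55.7% for PCDHG. Levels of the 53 members followed each other between the libraries (Pearson's r = 0.832, Spearman's rho = 0.834, given as a description over 53 genes that share 2 libraries). Over all promoters tested r was 0.933.

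**Figure D2:**
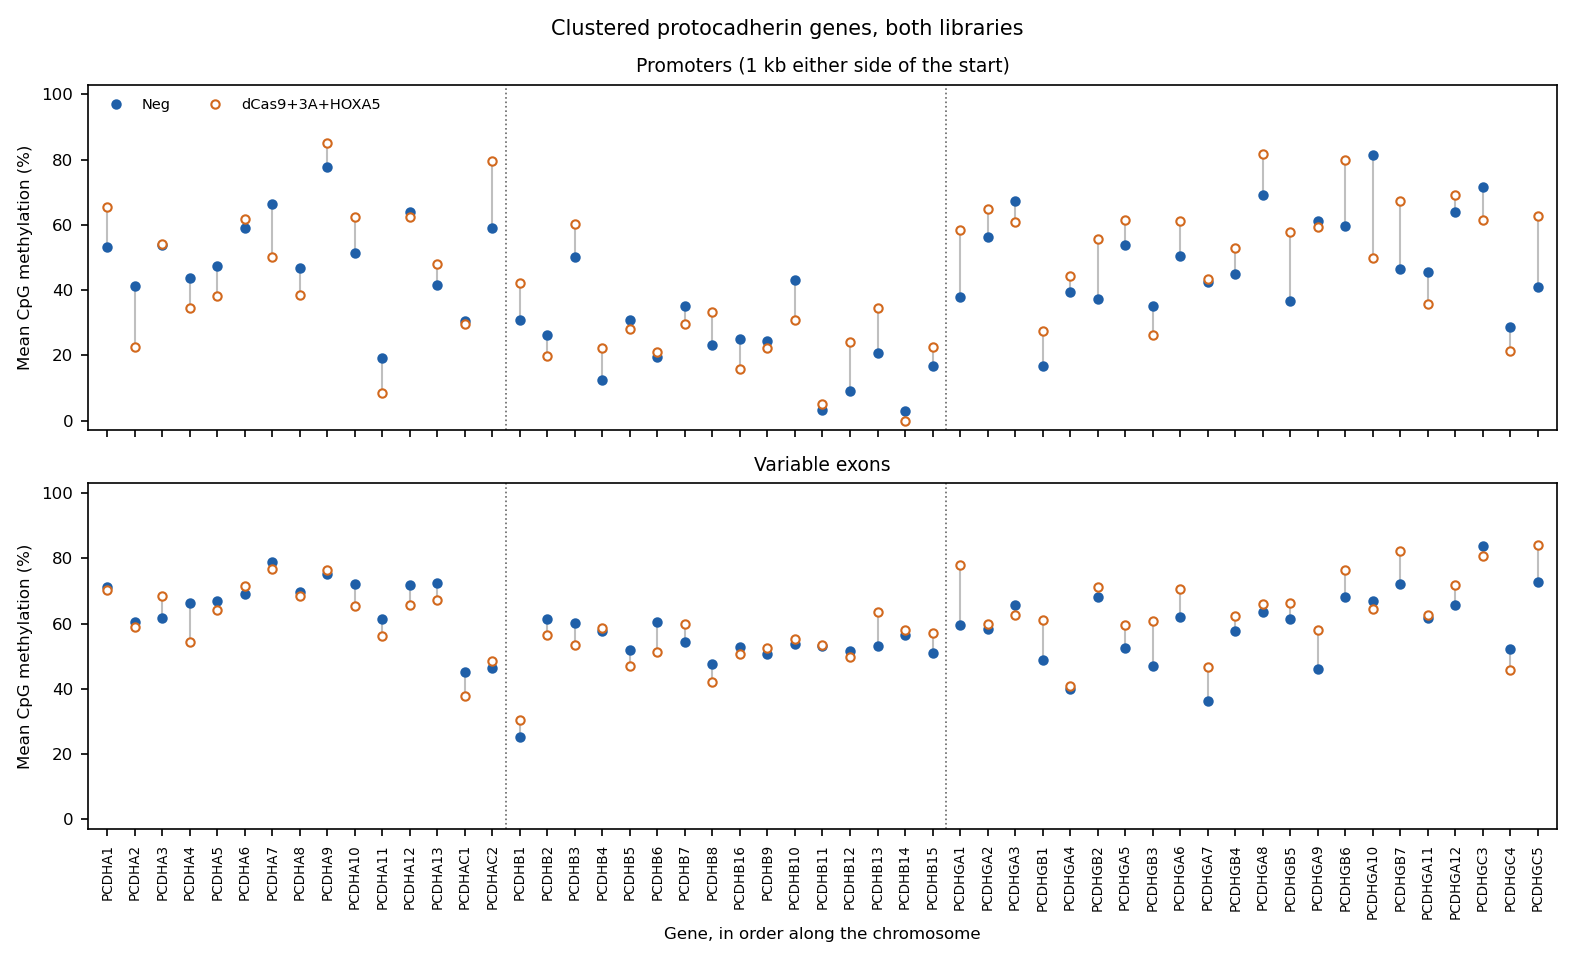
Mean CpG methylation (%) of each of the 53 genes in chromosome order, for promoters (above) and variable exons (below), with Neg as filled and dCas9+3A+HOXA5 as open circles joined by a line, and dotted lines between families. PCDHB promoters sit lowest, variable exons are higher and more even, and PCDHGA10 and PCDHAC2 show the called promoter differences.

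In the PCDHA family the promoters ranged from PCDHA11, the lowest, to PCDHA9, the highest. PCDHA11 stood at 19.4% ± 26.5 (SD over 33 CpGs) in Neg against 8.33% ± 20.4 in dCas9+3A+HOXA5. Its neighbour PCDHA12 was 44.5 points above it in Neg, at 63.9%, and stood at 62.4% in dCas9+3A+HOXA5. PCDHA9 had 77.8% and 85.1% over 29 CpGs, and PCDHA7 66.5% and 50%. PCDHA2 had 41.3% and 22.7%. Without CpGs in repeated stretches, PCDHA11 was 9.09 points higher in dCas9+3A+HOXA5 instead of lower, and PCDHA7 4.17 points higher. With at least 3 reads per CpG, PCDHA7 was instead called lower (a difference of -32.9 points over 7 CpGs, adjusted p = 0.00167, Fisher's exact test). In that setting 3 of 40 promoters were called, PCDHA1 higher and PCDHA7 and PCDHGA10 lower, against 2.2% and 0.768% of all promoters. These genes encode adhesion proteins of one structure that differ in their extracellular parts, and their levels spanned a wide range over adjoining genes.

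PCDHB genes included the least methylated promoters of the cluster. PCDHB14 had 2 of 40 methylated reads in Neg against 0 of 36 in dCas9+3A+HOXA5, for mean levels of 3.08% and 0%. PCDHB11 had 3.33% and 5% over 10 CpGs. PCDHB12 had 9.09% and 24.2% over 11 CpGs, from 24 and 23 reads. PCDHB3 was the highest at 50.1% and 60.3%, followed in Neg by PCDHB10 at 43.0% and 30.9% and PCDHB7 at 35.2% and 29.6%. None of these PCDHB differences passed the test, and some changed direction in other settings. PCDHB7 was 18.4 points higher in dCas9+3A+HOXA5 with at least 3 reads per CpG. PCDHB10 turned higher without CpGs in repeated stretches, and PCDHB3 turned lower with promoters of 500 bp either side.

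Among PCDHG genes the lowest promoter in Neg was PCDHGB1, at 16.8% in Neg against 27.6% in dCas9+3A+HOXA5, and it lies next to PCDHGA3, at 67.3% and 60.9%. PCDHGC4 followed with 28.6% and 21.5%, next to PCDHGC3 at 71.6% and 61.4%. PCDHGB3 had 35.2% and 26.4%, and PCDHGA8 69.0% and 81.7%. Such steps of over 40 points between neighbours occurred at 3 places of the cluster in Neg (PCDHA11 to PCDHA12, PCDHGA3 to PCDHGB1, PCDHGC3 to PCDHGC4) and had the same direction in dCas9+3A+HOXA5. They are steps of windows that include 1 kb of exon. In the 1 kb before the start, PCDHGC3 had 16.5% and 21.8% over 13 CpGs and PCDHGC4 3.48% and 0.483% over 23. PCDHA11 had 0% in each over 1 CpG and PCDHA12 48% and 75% over 5. PCDHGA3 had 0% in each over 1 CpG and PCDHGB1 0% and 33.3% over 3.

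The promoter test called 2 of 53 members different between the libraries, by Fisher's exact test (two-sided) on methylated and unmethylated reads with Benjamini-Hochberg adjustment over all tested promoters, an adjusted p under 0.01 and a difference above 20 points. PCDHAC2 was higher in dCas9+3A+HOXA5 and PCDHGA10 lower. Across the genome 2.27% of promoters were called higher and 0.604% lower, so 1 of 53 (1.89%) each way is close to that share for gains and is a single gene for losses. Without the adjustment, 11 members were higher and 8 lower in mean level at p under 0.05 by Fisher's exact test, and 19.5% and 6.27% of all promoters were. When only CpGs at least 200 bp apart entered the test, so that a read was seldom counted at several CpGs, no member was called by Fisher's exact test, 5 had an unadjusted p under 0.05, and 0.0809% and 0.0094% of all promoters were called higher and lower.

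PCDHGA10 had 81.4% ± 29.8 (SD over 34 CpGs) in Neg against 49.8% ± 44.7 in dCas9+3A+HOXA5, from 155 of 188 and 75 of 139 methylated reads (adjusted p = 3.3e-06 by Fisher's exact test, read share lower by 28.5 points with a 95% interval from 18.4 to 38.0 points lower, counting error only). All 34 CpGs lay after the start, since no CpG in the 1 kb before it was read in both libraries. The drop lay in the first part of the exon. From the start to 500 bp the level was 86.6% in Neg against 34.1% in dCas9+3A+HOXA5 over 17 CpGs, and from 500 bp to 1 kb it was 76.2% and 65.5%. The 180 bases printed above were chosen for their difference, so their counts describe it and add no separate evidence. Their 19 CpGs had 89 of 103 methylated reads in Neg against 30 of 78 in dCas9+3A+HOXA5. At most of these CpGs the latter library had 3 or 5 reads. The pattern was not uniform, since the first CpG of the stretch had 0 of 5 methylated reads in Neg against 3 of 3 in dCas9+3A+HOXA5. The call was lost with at least 5 reads per CpG (a difference of -15.5 points over 12 CpGs, where Fisher's exact test gave an adjusted p of 0.234). The whole PCDHGA10 exon, over 98 CpGs, had 66.8% and 64.6%. Its part beyond 1 kb ran the other way, with 59.1% in Neg against 72.4% in dCas9+3A+HOXA5 over 64 CpGs.

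PCDHAC2, a C-type gene, had 59.0% ± 42.7 (SD over 41 CpGs) in Neg against 79.7% ± 40.1 in dCas9+3A+HOXA5, from 71 of 123 and 64 of 79 methylated reads (adjusted p = 0.00937 by Fisher's exact test, read share higher by 23.3 points, 95% interval 10.2 to 34.6). Before the start the 2 libraries had 28.3% and 60% over 10 CpGs. From the start to 500 bp they had 76.5% and 88.2% over 17 CpGs, and from 500 bp to 1 kb after it 59.8% and 83.3% over 14 CpGs. Further into the same exon the order was the other way round. Beyond 1 kb the PCDHAC2 exon had 17.2% in Neg against 0% in dCas9+3A+HOXA5 over 24 CpGs. The call was lost with promoters of 500 bp either side (16.7 points higher, adjusted p = 0.143 by Fisher's exact test). It was also lost with at least 3 reads per CpG, which left 5 CpGs (38.7 points higher, adjusted p = 0.0721 by Fisher's exact test).

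Several promoters passed one part of the call only, and they are named here after their values were seen. PCDHGA1, PCDHGB5, PCDHGB6, PCDHGB7 and PCDHGC5 were 20.2 to 21.7 points higher in dCas9+3A+HOXA5 with adjusted p-values from 0.0282 to 0.864 by Fisher's exact test. The Cochran-Mantel-Haenszel test, with each CpG as a stratum, called PCDHGB6 and PCDHGB7 higher beside PCDHAC2, and PCDHGA10 lower (3 and 1 of 53, against 2.66% and 0.735% of all promoters). PCDHA1, PCDHA2, PCDHA10, PCDHA11 and PCDHGB2 had adjusted p-values under 0.01 with mean differences under 20 points. With promoters of 500 bp either side PCDHA2 was called lower (a difference of -23.0 points, adjusted p = 0.000421, Fisher's exact test), for 0 higher and 2 lower calls among 51 members, against 1.66% and 0.716% of all promoters. Measured as the share of summed reads, those 5 also passed 20 points, with PCDHA1, PCDHA10 and PCDHGB2 higher and PCDHA2 and PCDHA11 lower, for 4 members higher and 3 lower in all. By that measure 3.17% of all promoters were called higher and 0.993% lower. Without CpGs that carried evidence of a C-to-T variant, PCDHGB2 was called higher beside PCDHAC2, with PCDHGA10 lower, for 3 of 53 calls against 2.19% and 0.602% of all promoters. Mean level and read share had opposite signs in 14 of 53 members.

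**Figure D3:**
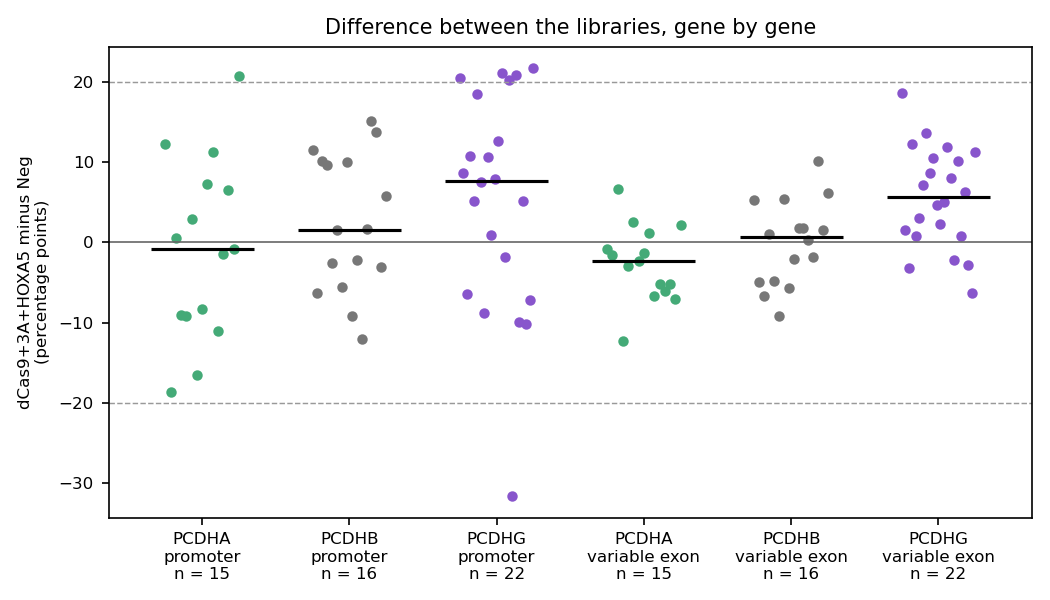
Each point is a gene, with the difference dCas9+3A+HOXA5 minus Neg in percentage points for its promoter (left) and variable exon (right), black bars at the family medians and dashed lines at 20 points either way. PCDHG medians lie above 0 for both regions and PCDHA medians below 0, and the lowest point is the PCDHGA10 promoter.

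Variable exons were more methylated and more even over members than promoters, with a median of 98 CpGs each against 32. The promoter window includes the first 1 kb of the exon. The mean of the exons was 65.9% ± 9.67 (SD over 15 genes) in Neg against 63.3% ± 10.6 in dCas9+3A+HOXA5 for PCDHA, 52.6% ± 8.23 and 52.5% ± 7.82 for PCDHB, and 59.6% ± 11.4 and 65.1% ± 11.5 for PCDHG. With at least 5 reads per CpG, PCDHA Neg SDs were 18.9 for exons and 19.2 for promoters. The PCDHB Neg means were then 50.4% and 49.6%, and the PCDHG Neg means 64.2% and 55.7%. The lowest exon was PCDHB1, at 25.4% and 30.6%. PCDHGC3 was the highest in Neg, at 83.7% and 80.9%, and PCDHGC5 the highest in dCas9+3A+HOXA5, at 72.9% and 84.1%. No exon was called in either direction, where 1.93% of 1086 long first exons of protein-coding genes were called higher and 1.1% lower. Some exons had an adjusted p under 0.01 by Fisher's exact test with mean differences under 20 points. By read share these were PCDHA3, PCDHGA1, PCDHGA7 and PCDHGC5, higher in dCas9+3A+HOXA5, and PCDHA4, PCDHAC1, PCDHB6 and PCDHB11, lower. PCDHA3 was 17.2 points higher by read share and PCDHAC1 20.6 points lower. At an unadjusted p under 0.05 by Fisher's exact test, 11 exons were higher and 6 lower in mean level (20.3% and 10.9% of the long first exons). The test itself uses summed reads. By read share PCDHA6 (-6.18 points) and PCDHB11 (-17.0 points), counted there as higher, were lower in dCas9+3A+HOXA5. The Cochran-Mantel-Haenszel test also called 0 of 53, where it called 1.84% of all long first exons higher and 1.01% lower. Other settings called a single exon each, with the shares of all long first exons given further below. These were PCDHGA7 (higher, at least 3 reads per CpG), PCDHB6 (lower, at least 5 reads) and PCDHAC1 (lower, read share). PCDHGA1 was called higher without CpGs in repeated stretches, and PCDHGA9 higher beyond 1 kb. By the Cochran-Mantel-Haenszel test 21 of 53 had an unadjusted p under 0.05, against 32.5% of all long first exons. In PCDHG, 18 of 22 exons were higher in dCas9+3A+HOXA5, among them all 7 PCDHGB exons, by 3.06 to 13.6 points. By read share 15 of 22 were higher, and PCDHGB2 (-2.08 points) and PCDHGB7 (-0.719 points) were lower. With at least 5 reads per CpG the mean PCDHG exon difference was -2.61 points instead of 5.55. In PCDHA, 11 of 15 exons were lower by mean level and 10 of 15 by read share. Among all long first exons 59.9% were higher.

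Levels were lower just before the start than deep in the exon in every group of genes. Just before the start, within 200 bp, the alternate PCDHA genes averaged 18.9% in Neg against 26.8% in dCas9+3A+HOXA5, PCDHB genes 4.46% and 7.5%, PCDHGA and PCDHGB genes 15.1% and 22.2%, and C-type genes 8.09% and 7.14%. From 1400 to 2200 bp after it, the same groups had 82.1% and 78.7%, 70.1% and 66.9%, 66.0% and 71.5%, and 62.8% and 63.5%. Over all CpGs the rise was not steady. From 200 to 600 bp and from 600 to 1200 bp, Neg levels were 58.1% and 39.7% in the alternate PCDHA genes and 62.0% and 52.4% in PCDHGA and PCDHGB genes. Without CpGs in repeated stretches, these zones had 37.9% and 39.8% in alternate PCDHA genes in Neg, over 57 and 93 CpGs, with no fall. PCDHGA and PCDHGB genes then had 55.6% and 53.2%. In dCas9+3A+HOXA5 the same zones then had 41.5% and 39.1%, and 58.1% and 60.6%. C-type genes stood at 80.8% in Neg from 600 to 1200 bp, above their later level. Of 44 members with at least 3 CpGs in both parts, 34 had a higher level in the exon beyond 1 kb than within 200 bp of the start in both libraries (8 of 14 PCDHA, 13 of 14 PCDHB and 13 of 16 PCDHG genes). Without CpGs in repeated stretches the count was 28 of 40, and from 1400 to 2200 bp PCDHA genes had 77.2% and 76.9%, PCDHB genes 51.2% and 60.8%, and PCDHGA and PCDHGB genes 57.6% and 63.7%. Within 200 bp before the start, PCDHGA and PCDHGB genes then had 19% and 0% over 22 CpGs. The C-type zones held no repeated stretch.

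**Figure D4:**
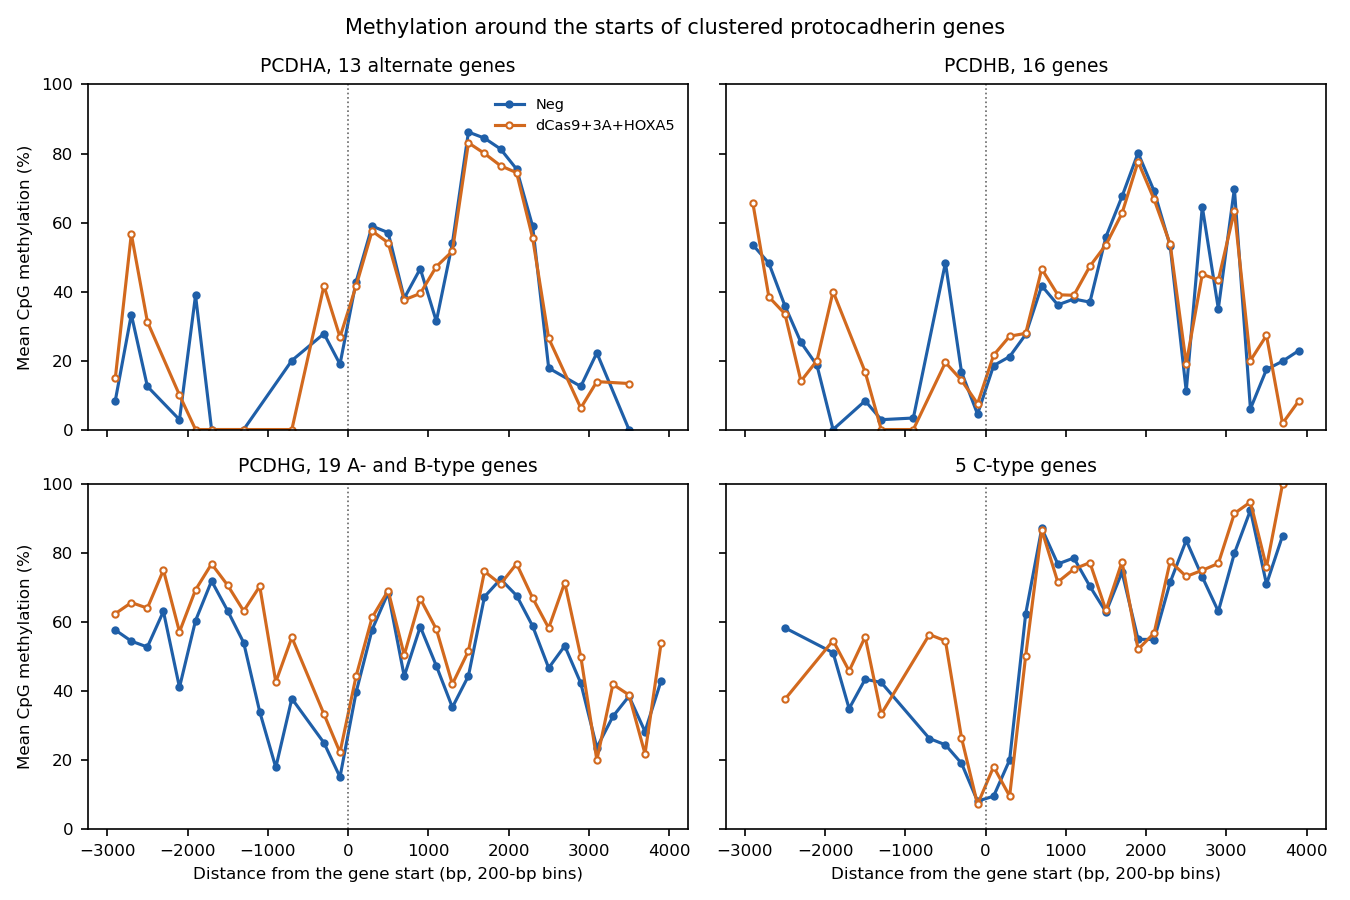
Mean CpG methylation (%) in 200-bp bins by distance from the gene start (bp) for 4 groups of genes, with Neg as filled and dCas9+3A+HOXA5 as open points; bins with fewer than 5 CpGs are left out. Levels are higher deep in the exon than just before the start in all 4 groups, but not in a steady rise, with a dip in PCDHA and PCDHG genes and a fall after the peak in C-type genes. All CpGs are drawn. Without those in repeated stretches, PCDHA genes had 37.9% in Neg from 200 to 600 bp and 39.8% from 600 to 1200 bp.

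Among C-type genes the rise was steep at PCDHGC3 and PCDHGC4, and PCDHAC2 went against it. At PCDHGC4, 27 CpGs within 200 bp of the start had 0 of 98 methylated reads in Neg against 0 of 71 in dCas9+3A+HOXA5, which allows shares of up to 3.06% and 4.23%. From 500 bp to 1 kb the same gene had 83.7% and 66.7%. PCDHGC3 had 0 of 25 and 0 of 13 methylated reads within 200 bp, then 96.6% and 89.5% over 41 CpGs from 500 bp to 1 kb. Between these parts, from the start to 500 bp, PCDHGC3 stood at 46.1% in Neg against 8.33% in dCas9+3A+HOXA5 over 12 CpGs. PCDHAC1 had 5.17% and 3.73% within 200 bp over 29 CpGs, and 71.6% and 54.5% from 500 bp to 1 kb. PCDHGC5 had 1 CpG read within 200 bp, and its exon beyond 1 kb stood at 84.3% and 93.8%. Only PCDHAC2 among the C-type genes was higher around the start, at 44.4% and 75%, than beyond 1 kb of its exon.

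**Figure D5:**
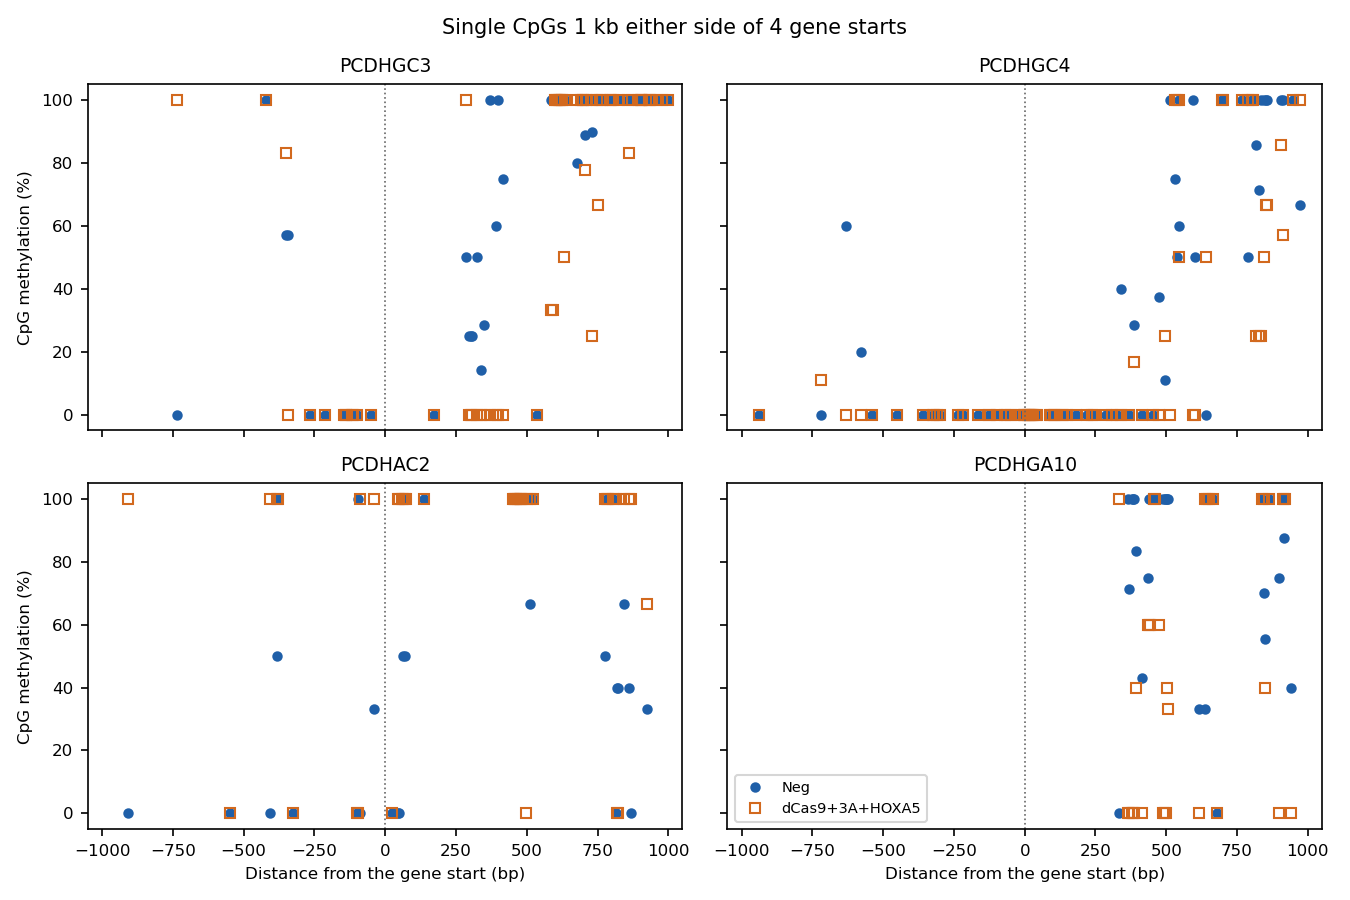
Methylation (%) of single CpGs by distance from the gene start (bp) at PCDHGC3, PCDHGC4, PCDHAC2 and PCDHGA10, with Neg as filled circles and dCas9+3A+HOXA5 as open squares. PCDHGC4 and PCDHGC3 lie at 0% within 200 bp of the start in both libraries, and PCDHGC3 climbs before 500 bp in Neg, PCDHAC2 has many CpGs at 100% near the start in dCas9+3A+HOXA5, and PCDHGA10 has no CpG read before the start.

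The constant exons, which encode the shared cytoplasmic end of the PCDHA and PCDHG proteins, differed between the families, and no difference between the libraries was detectable at this depth. The last PCDHA constant exon, chr5:140389212-140391932, had a mean level of 6.11% in Neg against 13.3% in dCas9+3A+HOXA5 over 15 CpGs, which is 7.23 points higher. Its reads ran the other way, with 5 of 56 and 4 of 57 methylated (8.93%, Wilson 95% interval 3.87 to 19.3, and 7.02%, interval 2.76 to 16.7). The last PCDHG constant exon, chr5:140890514-140892542, had mean levels of 68.3% and 70.1% over 42 CpGs, which is 1.79 points higher in dCas9+3A+HOXA5, from 80 of 117 and 130 of 168 methylated reads (68.4%, interval 59.5 to 76.1, and 77.4%, interval 70.5 to 83.1). Neither was called (adjusted p = 1 and 0.532 by Fisher's exact test over all exons, of which 0.746% were called higher and 0.555% lower). By read share the PCDHG exon was 9.0 points higher in dCas9+3A+HOXA5, with an interval from -1.35 to 19.6. The introns between constant exons had 13.2% and 11.1% (9 CpGs) and 11.7% and 8.52% (107 CpGs) in PCDHA, and 72.3% and 76.7% (80 CpGs) and 72.5% and 72.1% (60 CpGs) in PCDHG. The first 2 constant exons are short. Those of PCDHA held no CpG read in both libraries, and those of PCDHG held 3 and 4, too few to test.

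Tiles of 1 kb, which use no gene models, gave 9 calls among 329 tested in the window, 5 higher and 4 lower, which is 1.52% and 1.22% against 1.43% and 0.391% of all tiles. The lower tiles lay at the start of PCDHA2 (45% in Neg, 24.7% in dCas9+3A+HOXA5), in the PCDHAC2 exon (20.1% and 0%), between PCDHB1 and PCDHB2 (87.5% and 0%, from 10 and 13 reads), and at PCDHGA10 (79.3% and 29.1%). The higher tiles lay across the start of PCDHA1 (14.4% and 37.5%) and in the exons of PCDHGA1 (38.8% and 71.9%) and PCDHGA9 (5.56% and 68.1%). Others lay at the pseudogene PCDHGB8P (18.8% and 56.5%) and after PCDHGA12 (43.3% and 100%, over 6 CpGs). Within 200 bp of its start PCDHA1 had 0 of 14 and 0 of 3 methylated reads, so the gain in its tile lay further into the exon. No tile was called by Fisher's exact test, and 29 had an unadjusted p under 0.05, when the test used CpGs at least 200 bp apart, where 0.00759% of all tiles were called higher. With at least 3 reads per CpG, 3 of 159 tiles were called higher and 4 lower, against 1.9% and 0.7% of all tiles. Of the tiles named above, only those in the PCDHAC2 exon and at PCDHGA10 were among them. With at least 5 reads per CpG none of the named tiles was called.

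Intermediate levels were seen within single CpGs as well as between them, in the window and on the main chromosomes. Of 5 reads drawn at each of the 737 CpGs with 5 or more reads in each library, a mixture of methylated and unmethylated reads is the average outcome at 53.9% of CpGs in Neg against 35.2% in dCas9+3A+HOXA5. On the main chromosomes the shares were 47.3% and 31.5%. Fully unmethylated draws made up 14.3% in Neg against 20.9% in dCas9+3A+HOXA5 of those CpGs of the window, against 12.3% and 13.1% on the main chromosomes. These are shares over CpGs, and neighbouring CpGs are often covered by the same reads. CpGs in repeated stretches were kept, and whether reads placed on the wrong member added to the mixtures was not tested.

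Genes that act on clustered protocadherin promoters mostly had low levels at their own promoters. These were 14 genes, among them CTCF, which binds the element, the cohesin subunits RAD21, SMC1A and SMC3, and the methyltransferases DNMT1, DNMT3A and DNMT3B. Of the 14, 13 were under 20% in Neg. SETDB1, a histone methyltransferase, was the exception at 39.4% in Neg against 48.6% in dCas9+3A+HOXA5. SETDB1 had 127 of 363 and 153 of 265 methylated reads, 22.7 points higher by read share, and that measure called it higher. The list had a median of 2.07% in Neg against 2.49% in dCas9+3A+HOXA5, where all protein-coding promoters had 12.4% and 14.3%. Its median difference was 0.713 points, against 1.21 points over all protein-coding promoters, with a range from -1.96 to 37.6 points. DNMT3B had 10.4% and 17.8% (adjusted p = 0.001 by Fisher's exact test, not called), and RAD21 3.43% and 16.4%. STAG2, a cohesin subunit encoded on the X chromosome, was called higher, at 11.5% ± 21.4 (SD over 62 CpGs) in Neg against 49.1% ± 43.9 in dCas9+3A+HOXA5, from 26 of 220 and 80 of 169 methylated reads (adjusted p = 2.07e-12, Fisher's exact test). That is 1 of 14 genes, against 2.27% of all promoters called higher, and STAG2 was not called with at least 5 reads per CpG or with CpGs at least 200 bp apart. CTCF had 1.55% and 3.03% over 170 CpGs. No gene of this list was called lower.

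Protocadherins outside the cluster and the FAT cadherins gave 0 higher and 1 lower call among 17 tested genes, against 2.27% and 0.604% of all promoters (the listed PCDH21 is an older name of CDHR1, which was tested). PCDH8, a non-clustered protocadherin, went from 84.5% ± 28.9 (SD over 75 CpGs) in Neg to 52.4% ± 44.7 in dCas9+3A+HOXA5 (adjusted p = 0.00274 by Fisher's exact test), while the share of its reads differed by -16.1 points. PCDH8 was not called with at least 5 reads per CpG, by shares of summed reads or with CpGs at least 200 bp apart. CDHR1 (read shares 27.1% and 9.41%) was called lower with at least 3 and with at least 5 reads per CpG, and PCDH17 (40% and 12.7%) was called lower by shares of summed reads. The median promoter of this list was 5.55% in Neg against 6.38% in dCas9+3A+HOXA5, where the clustered members had medians of 42.6% and 44.5%. The other protein-coding genes inside the window, TAF7 and SLC25A2, were not called, with 9.93% and 10.8% and with 78.5% and 89.6%. For TAF7 the share of reads differed by 21.3 points, against 0.833 points for the mean level, and by read share TAF7 was called higher.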

How the data were processed

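WGBS libraries of 2 samples (1 per group) were used. The authors aligned reads with BSMAP 2.90 to hg19, per the submitters' processing notes, and deposited for each CpG the methylation fraction with the counts of C and of C or T reads and, for the opposite strand, of G and of G or A reads. The deposited estimated counts (C or T reads corrected by the authors' tool for the opposite strand's share of G) entered only through that fraction. The sources used here give neither read length nor the handling of duplicates. Per the study's methods CpGs needed 5 reads, yet CpGs with 1 read are listed. Reads at CpGs of the main chromosomes totalled 89774283 for Neg and 46703423 for dCas9+3A+HOXA5.

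The level of a region was the mean over its CpGs of the deposited fraction, with at least 1 read in both libraries. Regions with at least 5 CpGs were tested across the genome by Fisher's exact test on summed counts (two-sided, Benjamini-Hochberg) and called at a difference above 20 points and an adjusted p under 0.01. Regions were promoters, first exons of at least 1 kb and all exons of protein-coding genes, and 1-kb tiles. Gene models came from GENCODE release 44 lifted to GRCh37, with the start of the canonical transcript (most exons where none is tagged), and sequences from GRCh37. All 8077 CpGs of the window fell on a CG of that reference. Intervals are 95% Wilson intervals, or Newcombe's for differences, and a count of 0 allows 3 reads; both cover counting error only, since 1 read can cover several CpGs. Python 3.11.15, numpy 2.4.6, scipy 1.17.1 and pandas 2.3.3 were used, and the tests were checked on simulated data. The simulation drew reads independently at each CpG, so it does not cover reads that span several CpGs.

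Named with values were the C-type genes, called members, the 3 lowest and 3 highest promoters of each family in Neg, neighbours with steps over 40 points, and called genes of the lists. The members, lists and alternatives were chosen with earlier results of these data known. Alternatives were a minimum of 3 or 5 reads, fractions from the counts, read shares, leaving out CpGs with C-to-T variant evidence or in repeated 50-mers, 2 other tests, and other promoter and exon windows; gene record starts were added after the data had been seen.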

Additional observations from a re-analysis of the deposited data

How the results depend on the processing

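No paired analysis was possible because Neg and dCas9+3A+HOXA5 have 1 library apiece, so leaving a library out was not possible either. Of the values for groups of members, 104 stayed within their limits under the alternatives and 66 moved. Of those for named promoters, 128 kept their direction and side of the threshold, 18 reversed, 4 gained the call and 4 lost it, not counting the Cochran-Mantel-Haenszel test and CpGs at least 200 bp apart. A difference of 0 was counted as kept. Named promoters with fewer than 5 CpGs in a setting were not counted. That left 6 of 21 with at least 5 reads per CpG, and 6 of 21 with only the 1 kb before the start. With that spacing PCDHAC2 and PCDHGA10 lost their calls too, and both stayed called by the Cochran-Mantel-Haenszel test. The causes of these changes were not tested, and Neg levels and differences (dCas9+3A+HOXA5 minus Neg) are in percent and percentage points.

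With at least 3 reads per CpG, 1 of 53 variable exons was called (PCDHGA7, higher; 1.96% of all long first exons). The difference was -4.17 for the last PCDHA constant exon, 3.39 for PCDHA promoters, 1.21 for PCDHG promoters and -4.04 for PCDHB exons. Neg levels were 30.0 for PCDHB promoters, 54.3 for PCDHG promoters, 55.3 for PCDHB exons, 60.8 for PCDHG exons and 60.3 for the cluster. PCDHA12 (3.98), PCDHAC1 (19.5) and PCDHB7 (18.4) reversed, and PCDHA7 gained a call (-32.9), for 3 of 40 promoters called (1 higher, 2.2% of all, and 2 lower, 0.768%). Without CpGs with C-to-T variant evidence, 3 promoters were called (PCDHGB2 beside the other 2). With at least 5 reads, calls were 1 of 15 promoters (PCDHA1, higher, against 1.94% of all), 1 of 36 exons (PCDHB6, lower, 0.986%), 1 of 55 tiles each way (2.36% higher, 0.996% lower) and 1 of 11 listed promoters (CDHR1, lower, 0.81%). Differences were 16 for the last PCDHG constant exon, 8.69 for PCDHA promoters, 2.10 for PCDHG promoters, 3.14 for PCDHB exons, -2.61 for PCDHG exons and 0.958 for the cluster. Neg levels were 56.2 for PCDHA, 49.6 for PCDHB and 55.7 for PCDHG promoters, 50.4 for PCDHB and 64.2 for PCDHG exons, and 62.6 for the cluster, and PCDHGA3 reversed (10.7).

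As shares of summed reads, 7 promoters, 1 exon (PCDHAC1, lower, against 1.38% of all), 14 tiles (8 higher, 1.61% of all, and 6 lower, 0.456%) and 4 listed promoters (SETDB1, TAF7 and STAG2 higher, 3.17%, and PCDH17 lower, 0.993%) were called. Neg levels were 52.3 for PCDHA and 52.4 for PCDHG promoters, 54.5 for PCDHB and 60.7 for PCDHG exons, and 56.8 for the cluster. The difference was -2.64 for PCDHB exons and 1.18 for the cluster, and PCDHA12 (6.64), PCDHB7 (0.805) and PCDHGC3 (0.0291) reversed. Without CpGs in repeated 50-mers, 1 of 53 exons (PCDHGA1, higher, 2.03% of all) and 5 of 240 tiles (3 higher, 1.43%, and 2 lower, 0.391%) were called. Neg levels were 35.5 for PCDHA and 46.6 for PCDHG promoters, 57.5, 31.4 and 53.8 for PCDHA, PCDHB and PCDHG exons, and 45.9 for the cluster. The difference was 5.34 for PCDHB exons and 3.34 for the cluster, and PCDHA7 (4.17), PCDHA11 (9.09), PCDHA12 (3.66) and PCDHB10 (2.63) reversed.

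The Cochran-Mantel-Haenszel test called 4 promoters (PCDHAC2, PCDHGB6 and PCDHGB7 higher, 2.66% of all, and PCDHGA10 lower, 0.735%). With CpGs at least 200 bp apart, 0 promoters, 0 tiles and 0 listed promoters were called by Fisher's exact test (5, 29 and 4 at an unadjusted p under 0.05). With promoters of 500 bp either side, PCDHA2 gained a call (-23.0), Neg levels were 53.9 for PCDHA and 13.5 for PCDHB, the PCDHG difference was 2.40, and PCDHA12 (6.55), PCDHAC1 (5.29), PCDHB3 (-4.29) and PCDHGA3 (2.10) reversed. With only the 1 kb before the start, 0 promoters were called by Fisher's exact test (4 at an unadjusted p under 0.05), Neg levels were 13.9, 9.46 and 14.4 for PCDHA, PCDHB and PCDHG and differences 8.14, -3.26 and 9.94, and PCDHA12 (27.0), PCDHAC1 (13.1) and PCDHGC3 (5.32) reversed. For exons beyond 1 kb, 1 of 53 was called (PCDHGA9, higher, 3.49% of all), Neg levels were 68.7, 57.1 and 61.1 for PCDHA, PCDHB and PCDHG, and the PCDHG difference was 7.91. Starts of the gene records, chosen after seeing the data, gave the same 2 promoter calls.

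Depth was low at single genes: 737 of the 8077 shared CpGs had 5 or more reads in each library, and runs of CpGs rested on the same few reads.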
